A study of Homo sapiens with 12 samples.

Results

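The 105 genes examined here are the splicing factor and heterogeneous nuclear ribonucleoprotein (hnRNP) genes of an RNA sequencing experiment on breast cancer cells in which SMARCA4 was knocked out. They were chosen by name, with earlier results of these data known. The rows taken are those whose symbol starts with SRSF, HNRNP, SF3, SNRP, PRPF, U2AF or RBM followed by a digit. They are 105 of the 11529 rows of the expression table. There were 33 RBM, 23 HNRNP, 13 PRPF, 13 SNRP, 11 SRSF, 9 SF3 and 3 U2AF rows. Of 113 protein-coding genes whose RefSeq symbol follows the same rule, 99 were in the table, and the others were not analysed here. The 105 rows also hold 3 pseudogenes (HNRNPA1P33, SNRPEP4 and SNRPGP10), the antisense transcript HNRNPU-AS1 and the read-through gene HNRNPUL2-BSCL2. Reads of a pseudogene and of its parent gene, or of a gene and the read-through transcript that contains it, can be divided between them in either way, so these rows are uncertain.

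Of the 12 samples, 6 came from MDA-MB-468 cells and 6 from MDA-MB-231 cells, both established lines of triple-negative breast cancer, and each line had 3 samples of SMARCA4 KO cells and 3 of control cells. KO cells had been infected with a lentiCRISPR-v2 virus carrying an sgRNA to exon 4 of SMARCA4 (NM_001128849) and selected with puromycin as polyclonal pools, in which cells can carry different edits of the gene or none. Controls bear the genotype wild type and the word Control in the labels. Whether the sequenced controls had received a nontargeting vector or puromycin was not stated. The descriptions of the samples carry a p number that the labels do not explain, which is 10, 11 and 12 in both groups of MDA-MB-231, 26, 27 and 28 in the MDA-MB-468 controls and 25, 26 and 27 in the KO samples of that line. Nothing states that the samples of a group were separate cultures, so the p-values below measure the spread between these samples, which may be technical. The question asked of these genes is whether their transcript levels differed with SMARCA4 KO in each cell line, whether any such difference was unlike in the lines, and how far the lines differed from each other.

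Splicing removes introns from a transcript in the spliceosome, which is assembled from small nuclear ribonucleoproteins (snRNPs) and many further proteins. The SNRP genes encode proteins of these snRNPs, among them the ring of Sm proteins that surrounds most spliceosomal snRNAs. SF3 genes encode the SF3a and SF3b complexes of the U2 snRNP, which holds the branch point. U2AF proteins recognise the end of the intron next to the branch point. PRPF genes, named after yeast pre-mRNA processing genes, encode further spliceosomal proteins such as those of the tri-snRNP. SR proteins (SRSF genes) and hnRNPs bind exons and introns and promote or hinder the use of splice sites, and RBM genes are a mixed group of RNA-binding proteins named for their RNA recognition motifs. SMARCA4 itself is an ATPase of the SWI/SNF complexes, which remodel chromatin.

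All values are log2(FPKM + 1), where FPKM is the number of fragments scaled to the length of the transcript and to the size of the library, and differences are on that log2 scale, which understates the change of low genes. A gene is counted as called when its Benjamini-Hochberg adjusted p from limma, over all 11529 rows, was under 0.05 and its absolute log2 difference was over 0.5. The read depth behind the values is unknown, and between 11293 and 11362 rows were above 0 in a sample. SMARCA4 was at 6.61, 6.62 and 6.68 in the MDA-MB-468 controls and at 5.35, 5.48 and 5.61 in the KO samples, and at 6.10, 6.18 and 6.09 in the MDA-MB-231 controls and at 4.46, 4.64 and 4.56 in the KO samples, so its transcript was lower but present in every KO sample. Of the cell type markers, 8 of 8 epithelial genes were higher in MDA-MB-468 and 5 of 5 measured mesenchymal genes were lower there, each of them called, in control and in KO samples alike. Of 6 markers of other cell types, 1 was measured, the macrophage gene CD68, at 1.13 to 1.76 in the MDA-MB-468 samples and at 6.55 to 6.79 in the MDA-MB-231 samples. Across rows, samples of a group correlated at 0.989 to 0.995. The mean of the 105 genes was 5.99 in MDA-MB-468 control replicate 1 against 6.05 and 6.07 in the other controls of that line. Some KO results of that line, and of its comparison with MDA-MB-231, are also given without this sample, and the others can depend on it too.

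The 105 genes together held 1.66% to 2.03% of the summed FPKM of a sample. Their highest levels, averaged over the 12 samples, were those of HNRNPA2B1, HNRNPA1 and HNRNPC, core hnRNPs that coat nascent transcripts, and their lowest those of RBM11, RBM24 and the pseudogene SNRPEP4. The order at the top was not the same in the lines. HNRNPA2B1 was at 10.20, 10.32 and 10.30 in the MDA-MB-468 controls, and HNRNPA1 at 9.27, 9.43 and 9.39. In the MDA-MB-231 controls HNRNPA2B1 was at 9.56, 9.57 and 9.54 and HNRNPA1 at 9.82, 9.83 and 9.83. HNRNPA2B1 was thus above HNRNPA1 in each MDA-MB-468 control and below it in each MDA-MB-231 control, and the same was true of the KO samples, where HNRNPA2B1 was at 10.27, 10.37 and 10.23 against 9.22, 9.45 and 9.37 in MDA-MB-468 and at 9.44, 9.46 and 9.44 against 9.62, 9.66 and 9.66 in MDA-MB-231. On the linear scale the mean FPKM of HNRNPA2B1 was 1239 in MDA-MB-468 controls and 751 in MDA-MB-231 controls, and that of HNRNPA1 658 and 907. HNRNPC, at 9.06 ± 0.10 (SD, n = 3) in MDA-MB-468 controls and 9.07 ± 0.01 (SD, n = 3) in MDA-MB-231 controls, did not differ between the control lines beyond its spread. In KO samples it was at 9.13, 9.23 and 9.08 in MDA-MB-468 and at 8.97, 8.93 and 8.96 in MDA-MB-231, which did not overlap.

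In MDA-MB-468 cells, no member of any of the 7 families was called between KO and control samples. That was 0 of 105, where 2.14% of all rows were called (247), and 0 of 105 also had an adjusted p under 0.05 without the limit on size, where 3.75% of all rows did. At an unadjusted p under 0.05 there were 13, or 12.4% against 25.1% of all rows, 10 of them higher in KO samples (9.52% against 14.1%) and 3 lower (2.86% against 11%). The differences of the 105 genes ran from −0.25 to 0.35, and their median absolute size was 0.07, against 0.12 for all rows. The median difference was 0.04 and 71 genes (67.6%) were above 0, against a median of 0.02 and 53.6% of all rows. Without control replicate 1 the median was 0.01 and 56 genes were above 0. At an unadjusted p under 0.05 there were then 9 members, where 2295 of 11529 rows were, and limma called 0 members and 27 of all rows.

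The members with the largest differences in MDA-MB-468 whose groups did not overlap were RBM42, HNRNPLL, SNRPB, RBM38 and RBM11 on the higher side. RBM42, an RNA-binding protein that associates with hnRNP K, was at 6.46, 6.59 and 6.67 in controls and at 6.87, 6.96 and 6.88 in KO samples, a log2 difference of 0.33 (SE 0.07, limma adjusted p 0.060). HNRNPLL, which regulates splicing of CD45 in lymphocytes, was at 4.63, 4.64 and 4.73 in controls and at 4.99, 4.99 and 4.88 in KO samples (0.29, SE 0.05, limma adjusted p 0.054). The lowest KO sample stood above the highest control for both genes, yet neither passed the adjusted threshold. SNRPB, which encodes the Sm proteins B and B', differed by 0.25, RBM38, a p53 target that binds mRNA, by 0.24, and RBM11 by 0.22, with limma adjusted p of 0.12, 0.13 and 0.17. On the lower side were HNRNPU-AS1 at −0.25, RBM47 at −0.23, RBM12 at −0.22, PRPF39, a U1 snRNP-associated protein, at −0.19, and RBM6 at −0.16, with limma adjusted p of 0.12, 0.054, 0.20, 0.085 and 0.21. Of the genes with central roles, SF3B1, the branch point-binding subunit of SF3b, differed by 0.01, PRPF8, the core protein of the U5 snRNP, by 0.06, and SRSF1, SRSF3, SRSF5 and SRSF7 by −0.02 to 0.03. The signs of SF3B1 and of these SRSF genes turned when single samples were left out.

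In MDA-MB-231 cells 0 of 105 members were called as well, where 3.7% of all rows were called (426). Without the limit on size 5 had an adjusted p under 0.05, all of them lower in KO samples, which is 4.76% of the members against 5.48% of all rows lower at that threshold and 10.8% in either direction. At an unadjusted p under 0.05 there were 25, or 23.8% against 31.2% of all rows, 3 of them higher (2.86% against 14.8%) and 22 lower (21% against 16.4%). The median difference was −0.07 and 34 genes (32.4%) were above 0, against a median of −0.01 and 47.6% of all rows. In 29 members (27.6%) all 3 KO samples lay below all 3 controls, against 19.4% of all rows, and in 5 (4.76%) all lay above, against 16.6%. Scaling the samples to the same 75th percentile moved the median of the members to −0.03, with 45 above 0, and the median of all rows to 0.02. The mean of the 105 genes was 5.83 in KO replicate 1, against 5.89 and 5.88 in the other KO samples of this line. Without KO replicate 1 the median was −0.04, with 40 genes above 0. At an unadjusted p under 0.05 there were then 13 members, where 2849 of 11529 rows were.

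The 5 genes below the adjusted threshold were hnRNPs and PRPF proteins. HNRNPAB, an hnRNP of the A/B type, was at 7.71, 7.59 and 7.61 in controls and at 7.27, 7.36 and 7.39 in KO samples (−0.30, SE 0.06, limma adjusted p 0.033). HNRNPD, also known as AUF1, which binds AU-rich elements of mRNAs, was at 8.42, 8.43 and 8.52 in controls and at 8.19, 8.23 and 8.20 in KO samples (−0.25, SE 0.05, limma adjusted p 0.031). HNRNPA1 was at 9.82, 9.83 and 9.83 in controls and at 9.62, 9.66 and 9.66 in KO samples (−0.18, SE 0.04, limma adjusted p 0.045). For each of these the groups were apart by less than the size limit. The other genes were PRPF38B, a protein of the spliceosomal B complex, at −0.24 (limma adjusted p 0.030), and PRPF3, a protein of the U4/U6 snRNP, at −0.18 (limma adjusted p 0.047). None of the 5 kept an adjusted p under 0.05 when any 1 of the 6 samples was left out (limma adjusted p 0.061 to 0.13) or with the replicate number as a block (limma adjusted p 0.10 to 0.14). Of the 23 HNRNP genes, 10 had all KO samples below all controls and 0 had them above, against 19.4% and 16.6% of all rows. Their differences were above 0 in 4 of 23, against 47.6% of all rows.

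RBM47 had the largest positive difference in MDA-MB-231, at 3.14, 3.69 and 3.58 in controls and at 3.89, 4.05 and 4.10 in KO samples (0.55, SE 0.15, limma adjusted p 0.077). It was the only member past the size limit of 0.5 in either line, and it missed the adjusted threshold. Its 3 KO samples stood above its 3 controls, whose SD was 0.29 against 0.11 in the KO samples (n = 3 each). The next largest positive differences among members whose groups did not overlap were those of RBM4, a splicing regulator, at 0.22 (limma adjusted p 0.066), SF3B1 at 0.16, SF3B2 at 0.13 and RBM41 at 0.10. The largest negative ones were those of RBM24 at −0.48 (limma adjusted p 0.12), RBM34 at −0.38 (limma adjusted p 0.11), SNRPG, an Sm protein, at −0.33 (limma adjusted p 0.083), and HNRNPAB and HNRNPD. The 13 genes of a proliferation list had a median of −0.12 in MDA-MB-231, with 2 above 0, 0 called and 7 at an unadjusted p under 0.05, and a median of 0.01 in MDA-MB-468, with 7 above 0, 0 called and 1 at that p. The 8 epithelial markers were all above 0 in MDA-MB-231, with a median of 0.30, and 1 was called, CDH1, higher in KO samples by 0.54 (limma adjusted p 0.044, and 0.054 to 0.14 with any 1 sample left out). The 5 measured mesenchymal markers had a median of −0.39 there, with 4 lower at an unadjusted p under 0.05, 2 of them, VIM (−0.39) and MMP14 (−0.45), also at an adjusted p under 0.05, and 0 called. In MDA-MB-468 the medians of these lists were 0.08 and 0.04, with 0 called and 3 and 0 at an unadjusted p under 0.05. The part of these 3 lists in the values of the 105 genes was not tested.

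**Figure D1:**
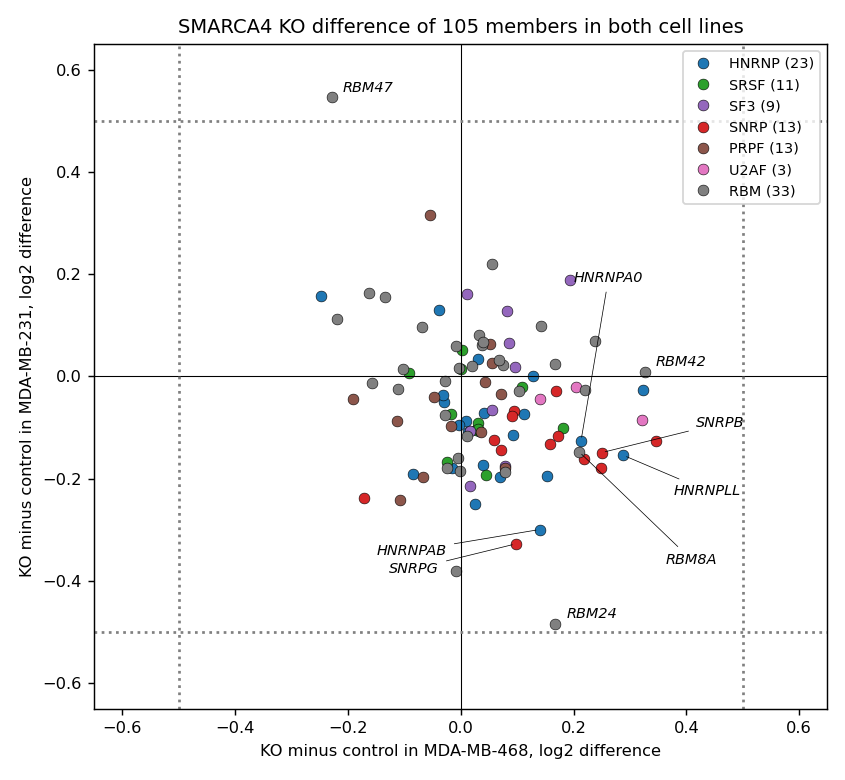
Each point is 1 of the 105 genes, placed by its log2 difference between KO and control samples (3 against 3) in MDA-MB-468 on the horizontal axis and in MDA-MB-231 on the vertical axis, and coloured by family, with the number of genes in brackets. Dotted lines mark a size of 0.5, which RBM47 alone passed, at 0.55 in MDA-MB-231, and 9 genes whose differences were unlike in the lines at an adjusted p under 0.05 are named.

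RBM47 and RBM24 were the members called in a fit of all 12 samples for the MDA-MB-468 difference minus the MDA-MB-231 difference. That was 2 of 105 (1.9%), where 8.71% of all rows were called (1004). RBM47, a cofactor of APOBEC1 in C-to-U editing of RNA and a regulator of splicing, was at 5.04, 4.99 and 5.02 in the MDA-MB-468 controls and at 4.77, 4.77 and 4.83 in the KO samples of that line, so that it was lower in KO samples there and, as given above, higher in MDA-MB-231 KO samples. The groups did not overlap in either line. The difference of the differences was −0.77 (SE 0.17, limma adjusted p 0.013), and it was called under every alternative setting apart from a size limit of 1. RBM24, best known as a splicing regulator of heart and skeletal muscle, was at 0.25, 0.16 and 0.03 in the MDA-MB-468 controls and at 0.40, 0.20 and 0.34 in the KO samples, where the groups overlapped, and at 2.71, 2.36 and 2.31 in the MDA-MB-231 controls and at 1.85, 1.80 and 2.28 in the KO samples, which lay below them. The difference of the differences was 0.65 (SE 0.19, limma adjusted p 0.042). Blocking by replicate number gave it a limma adjusted p of 0.072, and without MDA-MB-231 KO replicate 1 it was 0.098. In MDA-MB-468 the mean FPKM of RBM24 was 0.11 in controls and 0.25 in KO samples, near the floor. RBM24 passed the authors' filter, a mean and an SD of FPKM of at least 1, through MDA-MB-231 alone. A fall in MDA-MB-468 could hardly have been seen, and the MDA-MB-231 difference alone was not called (limma adjusted p 0.12). The call of RBM24 is thus a description.

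A further 7 members passed the adjusted threshold for this difference with a size under 0.5, so that 9 of 105 (8.57%) did, where 14.7% of all rows did. In 8 of the 9 the MDA-MB-468 difference was the higher one (7.62% of the members against 7.91% of all rows), and RBM47 was the exception. HNRNPLL differed by 0.44 (limma adjusted p 0.0099), with 0.29 in MDA-MB-468 against −0.15 in MDA-MB-231, where it was at 4.30, 4.27 and 4.18 in controls and at 4.11, 4.03 and 4.15 in KO samples. RBM8A, a core protein of the exon junction complex that marks spliced mRNA, was at 7.26, 7.40 and 7.48 in the MDA-MB-468 controls and at 7.57, 7.62 and 7.57 in the KO samples, and at 7.01, 6.99 and 6.96 in the MDA-MB-231 controls and at 6.77, 6.89 and 6.86 in the KO samples (0.36, limma adjusted p 0.030). HNRNPA0, which binds AU-rich elements, was at 6.10, 6.27 and 6.28 against 6.39, 6.48 and 6.43 in MDA-MB-468 and at 6.21, 6.26 and 6.32 against 6.09, 6.17 and 6.16 in MDA-MB-231 (0.34, limma adjusted p 0.033). For HNRNPLL, RBM8A and HNRNPA0 the KO samples stood wholly above the controls in MDA-MB-468 and wholly below them in MDA-MB-231. The other 4 were HNRNPAB at 0.44, SNRPG at 0.43, SNRPB at 0.40 and RBM42 at 0.32, with limma adjusted p of 0.038, 0.039, 0.046 and 0.043. Over the 105 genes the median was 0.13 and 77 (73.3%) were above 0, against a median of 0.02 and 53.1% of all rows, and 25 (23.8%) had an unadjusted p under 0.05, against 31.5% of all rows.

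The count of 9 rested on single samples. Without MDA-MB-468 control replicate 1, which was the lowest control for HNRNPLL, HNRNPAB, RBM8A, HNRNPA0, SNRPB, SNRPG and RBM42, 2 genes stayed under an adjusted p of 0.05, RBM47 at −0.76 (limma adjusted p 0.030) and HNRNPLL at 0.42 (limma adjusted p 0.025). The other 7 kept their sign, RBM24 at 0.70 and the rest at 0.26 to 0.39, with limma adjusted p of 0.058 to 0.10. The median of the 105 genes was then 0.08 with 73 above 0, and 12 had an unadjusted p under 0.05. Leaving out other samples gave 2 to 11 genes under the adjusted threshold, the replicate block gave 5, and the same 75th percentile and quantile normalization gave 2 each.

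The bases before the RefSeq transcription starts of the called genes RBM47 and RBM24, and of RBM38, the paralog of RBM24, are shown because these genes had the KO difference unlike in the lines or, as given below, opposite differences between the lines. Each sequence holds the 250 bases before a start in GRCh38.p14, 5′ to 3′ on the gene's strand, and RBM47 has 4 such starts. Capitals mark matches, on either strand, to the E-box CAGGTG, the TEAD site GGAATG, the GC box GGGCGG and the CCAAT box CCAAT, and overlapping matches run together.
RBM24, chr6:17281814-17282063, plus strand: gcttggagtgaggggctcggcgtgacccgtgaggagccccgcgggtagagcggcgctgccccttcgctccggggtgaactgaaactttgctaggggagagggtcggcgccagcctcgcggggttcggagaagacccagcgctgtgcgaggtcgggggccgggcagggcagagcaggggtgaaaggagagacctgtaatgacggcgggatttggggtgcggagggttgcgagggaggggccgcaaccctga
RBM38, chr20:57391146-57391395, plus strand: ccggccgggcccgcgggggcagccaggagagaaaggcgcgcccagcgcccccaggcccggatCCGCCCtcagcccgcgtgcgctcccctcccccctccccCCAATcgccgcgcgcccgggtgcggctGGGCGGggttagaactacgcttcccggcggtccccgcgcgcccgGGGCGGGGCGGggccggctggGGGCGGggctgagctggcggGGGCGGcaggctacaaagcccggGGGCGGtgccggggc
RBM47 start 1, chr4:40630595-40630844, minus strand: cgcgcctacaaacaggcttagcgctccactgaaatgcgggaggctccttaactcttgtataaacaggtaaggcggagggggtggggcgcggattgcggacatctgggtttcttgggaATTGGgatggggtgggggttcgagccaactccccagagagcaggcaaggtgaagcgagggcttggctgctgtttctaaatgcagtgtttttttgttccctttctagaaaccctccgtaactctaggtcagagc
RBM47 start 2, chr4:40629865-40630114, minus strand: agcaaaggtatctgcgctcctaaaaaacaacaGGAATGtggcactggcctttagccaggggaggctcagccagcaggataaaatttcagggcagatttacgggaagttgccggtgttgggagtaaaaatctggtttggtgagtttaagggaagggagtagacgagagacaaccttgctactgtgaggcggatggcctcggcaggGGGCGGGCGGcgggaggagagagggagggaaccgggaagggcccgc
RBM47 start 3, chr4:40515986-40516235, minus strand: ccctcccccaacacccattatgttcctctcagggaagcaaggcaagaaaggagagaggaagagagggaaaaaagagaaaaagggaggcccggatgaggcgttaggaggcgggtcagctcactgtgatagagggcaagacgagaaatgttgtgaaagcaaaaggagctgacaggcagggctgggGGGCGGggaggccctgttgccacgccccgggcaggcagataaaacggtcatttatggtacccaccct
RBM47 start 4, chr4:40514582-40514831, minus strand: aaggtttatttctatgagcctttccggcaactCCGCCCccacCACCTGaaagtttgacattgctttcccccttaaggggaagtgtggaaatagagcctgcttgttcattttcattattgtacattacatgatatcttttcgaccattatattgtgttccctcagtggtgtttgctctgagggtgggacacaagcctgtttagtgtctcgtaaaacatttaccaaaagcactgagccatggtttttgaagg
RBM38 held 7 GC boxes, 2 of which overlap, and RBM24 held 0 matches of any of the 4 motifs. The E-box stood before start 4 of RBM47 and the TEAD site before start 2. Of 35116 windows of this length before RefSeq starts, 17.5% held the E-box, 11.9% the TEAD site, 42.6% the GC box and 32% the CCAAT box. GC content was 69.2% before RBM24, 82.8% before RBM38 and 43.2% to 56.8% before the RBM47 starts, against a median of 58% over all windows. The table of expression does not say which start was used.

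The genes of snRNP proteins differed together by sign, with sizes that mostly missed the adjusted threshold. In MDA-MB-468, 12 of 13 SNRP rows were above 0 with a median of 0.16, in MDA-MB-231 0 of 13 were, with a median of −0.13, and the difference between the lines was above 0 in 13 of 13, with a median of 0.29. For 12 of the 13 this last sign follows from the signs in the lines and adds nothing to them. Of all rows 53.6%, 47.6% and 53.1% were above 0 in these comparisons. The signs were not particular to the SNRP rows. Above 0 were 3, 0 and 3 of 3 U2AF, 16, 4 and 20 of 23 HNRNP and 8, 3 and 8 of 11 SRSF rows. In the remaining families 6, 3 and 8 of 13 PRPF, 9, 5 and 7 of 9 SF3 and 17, 19 and 18 of 33 RBM rows were. In each of the 3 comparisons limma called 0 of the 13 SNRP rows. At an unadjusted p under 0.05 there were 3, 1 and 6 of the 13, where 25.1%, 31.2% and 31.5% of all rows were, and SNRPB and SNRPG alone passed the adjusted threshold for the difference between the lines. SNRPB was at 8.32, 8.52 and 8.56 in the MDA-MB-468 controls and at 8.71, 8.75 and 8.69 in the KO samples, and at 8.42, 8.42 and 8.65 in the MDA-MB-231 controls and at 8.34, 8.26 and 8.44 in the KO samples. The groups were apart in MDA-MB-468 and overlapped in MDA-MB-231. SNRPG was at 7.61, 7.77 and 7.67 and then 7.77, 7.84 and 7.73 in MDA-MB-468, where the groups overlapped, and at 7.63, 7.70 and 7.69 and then 7.42, 7.14 and 7.47 in MDA-MB-231, where they did not. SNRPC, a protein of the U1 snRNP, was apart in both lines, at 0.16 and −0.13, with a limma adjusted p of 0.073 for the difference. In the pseudogene SNRPEP4 the SD of a group was as large as 0.89 (n = 3), and its difference of 0.35 in MDA-MB-468 is within that spread.

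The SNRP genes are short. Their transcripts had a median length of 1052 bases against 3180 for all rows, and over all rows the KO difference correlated with GC content, at a Spearman rho of 0.31 for MDA-MB-468 and 0.29 for MDA-MB-231 (genes are not independent replicates). After a correction of each sample for GC content and transcript length the medians of the 13 rows were 0.10 (MDA-MB-468) and −0.08 (MDA-MB-231), with 12 and 1 above 0. The median of the difference between the lines fell to 0.15 with this correction, with 12 above 0. With quantile normalization it was 0.19, with 13 above 0. Without MDA-MB-468 control replicate 1 the MDA-MB-468 median was 0.10, with 12 above 0, and the median of the difference between the lines 0.23, with 13 above 0. Genes outside the 105 that act in the same steps had medians of the same sign. The 6 measured genes of the LSM ring, the Sm-like ring of the U6 snRNP, had a median of 0.15 in MDA-MB-468, against −0.10 for MDA-MB-231, with 6 and 1 above 0, and 10 genes of snRNP assembly had 0.12 and −0.10, with 9 and 1 above 0. The 25 measured genes of the U snRNPs and tri-snRNP outside the 105 had smaller medians, 0.09 and −0.06, with 22 and 7 above 0. Of these lists limma called 0 genes in either line. At an unadjusted p under 0.05 there were 2 and 2 of the 6 LSM genes and 1 and 4 of the 10 genes of snRNP assembly, where 25.1% and 31.2% of all rows were.

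**Figure D2:**
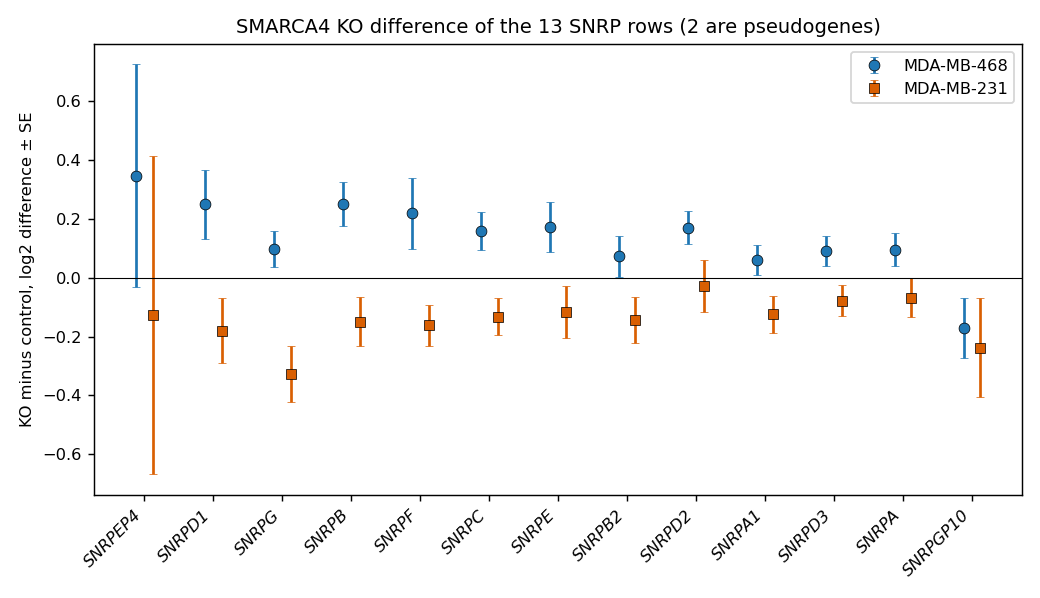
For each of the 13 SNRP rows the log2 difference between KO and control samples with its standard error (3 against 3 samples) is shown for MDA-MB-468 (circles) and MDA-MB-231 (squares), ordered by the difference between the lines. Apart from the pseudogene SNRPGP10, at −0.17, the circles lie above 0, and all squares lie below 0.

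By contrast with the KO comparisons, the cell lines differed from each other in 39 of the 105 genes (37.1%) among control samples, where 64.1% of all rows were called (7395). Of the 39, 25 were higher in MDA-MB-468 (23.8% of the members against 32.7% of all rows) and 14 lower (13.3% against 31.4%). The median absolute difference was 0.40 against 0.73 for all rows. Within families, 13 of 33 RBM, 7 of 23 HNRNP, 5 of 13 SNRP, 5 of 9 SF3, 4 of 13 PRPF, 3 of 11 SRSF and 2 of 3 U2AF genes were called.

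RBM genes had the largest differences between the lines. RBM11, a splicing regulator of restricted tissue expression, was at 1.99, 2.02 and 2.00 in the MDA-MB-468 controls and at 0, 0.11 and 0 in the MDA-MB-231 controls (1.97, SE 0.07, limma adjusted p 6.2e-08), and it was listed at 0 in 4 of the 6 MDA-MB-231 samples. RBM47 was higher in MDA-MB-468 by 1.55 (SE 0.14, limma adjusted p 1.6e-05). RBM38, at 5.33, 5.35 and 5.55 against 4.15, 4.02 and 4.00, was higher there by 1.35 (SE 0.09, limma adjusted p 2.4e-06). On the other side, RBM24 was lower in MDA-MB-468 by 2.31 on the log2 scale (−2.31, SE 0.12, limma adjusted p 6.5e-07), and RBM3, a protein induced by cold, was at 6.37, 6.29 and 6.23 in MDA-MB-468 against 8.35, 8.45 and 8.58 in MDA-MB-231 (−2.16, SE 0.08, limma adjusted p 1.3e-07). For each of these genes the 6 samples of one line stood apart from the 6 of the other, KO samples included. RBM11 and RBM24 passed the authors' filter, a mean and an SD of FPKM of at least 1, through 1 line alone. The mean FPKM of RBM11 was 0.027 and 0.0067 in control and KO samples of MDA-MB-231, against 3.01 and 3.69 in MDA-MB-468. That of RBM24 was 0.11 and 0.25 in MDA-MB-468, against 4.55 and 2.98 in MDA-MB-231. A large line difference was thus a condition of their being analysed, and their values are a description. RBM15, an adaptor of the m6A methyltransferase complex, differed by 0.89, RBM26 by 0.77, RBM33 by −0.60, RBM39, a U2AF-related splicing factor, by −0.63, and RBM5, a splicing regulator linked to apoptosis, by −0.58.

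Among the HNRNP genes HNRNPUL2 was higher in MDA-MB-468 by 1.12 and HNRNPU-AS1 by 1.40, while HNRNPA1P33 was lower there (−1.37) as was HNRNPD (−0.53). HNRNPU itself, whose gene lies antisense to HNRNPU-AS1, differed by 0.13 (limma adjusted p 0.15), and since the strand setting of the counting was not stated, reads of this pair may not be told apart. Of the PRPF genes PRPF38A, another B complex protein, was at 5.55, 5.75 and 5.77 in the MDA-MB-468 controls and at 4.43, 4.20 and 4.25 in the MDA-MB-231 controls (1.39, SE 0.10, limma adjusted p 3.5e-06). PRPF40B differed by 1.02 and PRPF38B by 0.51. Among the remaining rows HNRNPUL2-BSCL2 differed by 0.85 and U2AF1L4, a paralog of U2AF1, by 0.79. Of the SR protein genes SRSF11 (0.65), SRSF7 (0.60) and SRSF9 (−0.69) were called. Under the size limit, SRSF8 differed by −0.43, SRSF2 by 0.30, SRSF4 by −0.29 and SRSF6 by −0.24, with limma adjusted p of 0.00041, 0.012, 0.017 and 0.032. SRSF10, SRSF1, SRSF3 and SRSF5 differed by −0.20, 0.15, 0.12 and −0.04, with limma adjusted p of 0.053, 0.083, 0.20 and 0.59.

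**Figure D3:**
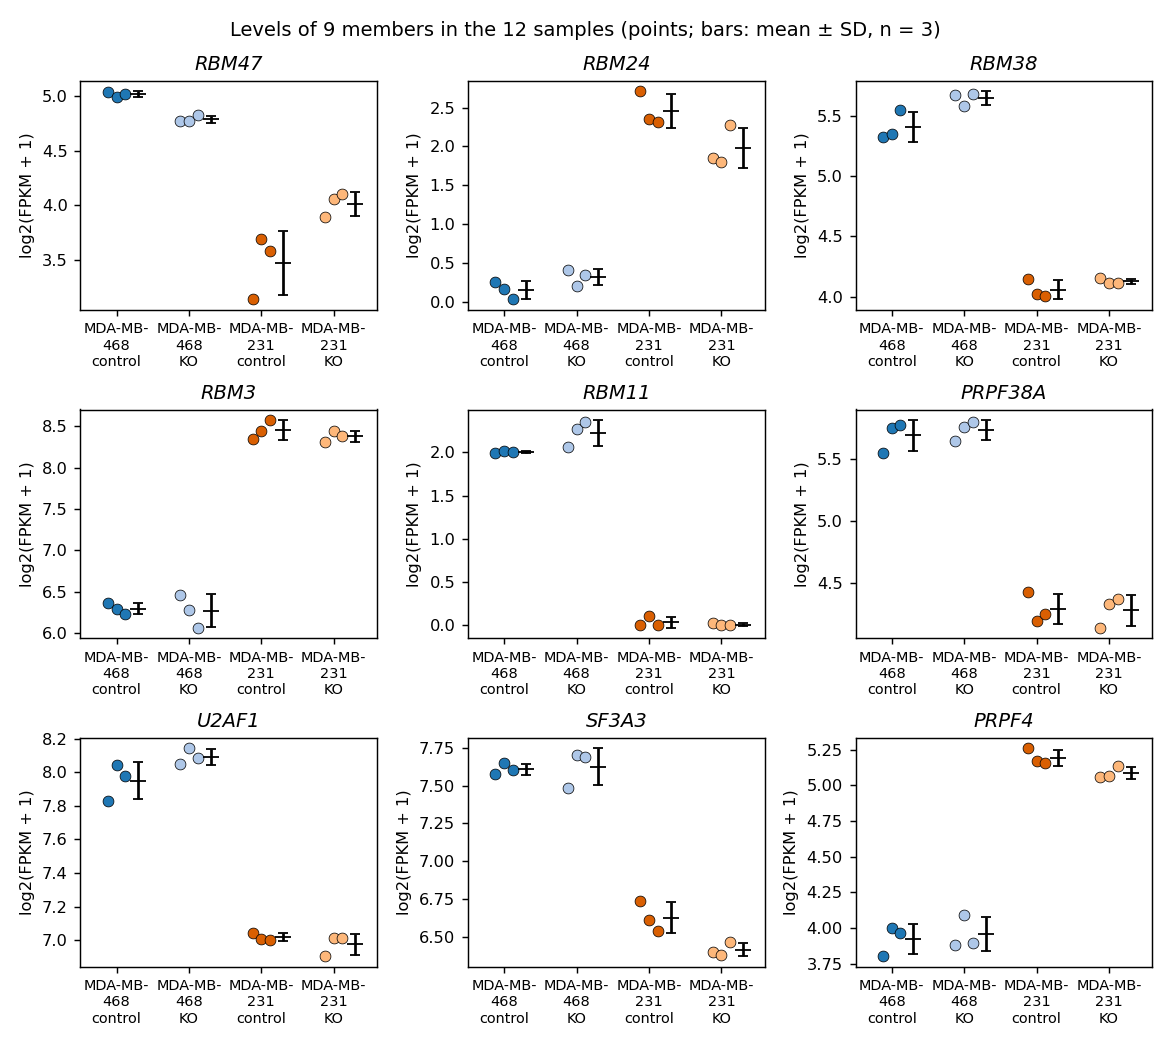
Levels of 9 genes in log2(FPKM + 1), with 1 point for each of the 12 samples in 4 groups and bars for the mean and SD of 3 samples. The vertical axes differ between panels and start at 0 or below for RBM24 and RBM11 alone. RBM47, RBM38, RBM11, PRPF38A, U2AF1 and SF3A3 were higher in each MDA-MB-468 sample, and RBM24, RBM3 and PRPF4 in each MDA-MB-231 sample.

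Subunits of single complexes differed between the lines in opposite directions. In the SF3a complex, SF3A1 and SF3A3 were higher in MDA-MB-468 by 0.78 and 0.98 and SF3A2 was lower (−0.63). SF3A3 was at 7.58, 7.65 and 7.60 in the MDA-MB-468 controls against 6.73, 6.61 and 6.54 in the MDA-MB-231 controls (SE 0.08, limma adjusted p 7.1e-06), and SF3A2 was at 5.48, 5.44 and 5.40 against 6.11, 6.06 and 6.05 (SE 0.06, limma adjusted p 3.8e-05). Each of the 3 subunits had groups that did not overlap. In the Sm ring SNRPD3 was higher in MDA-MB-468 by 0.87, SNRPD1 (−0.95), SNRPF (−0.74) and SNRPD2 (−0.51) were lower, and SNRPB, SNRPE and SNRPG differed by −0.03, −0.04 and 0.01. SNRPD1 was at 5.88, 6.29 and 6.13 in the MDA-MB-468 controls and at 7.15, 6.84 and 7.16 in the MDA-MB-231 controls (SE 0.13, limma adjusted p 0.00021). SNRPC of the U1 snRNP was lower too (−0.59).

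PRPF4 and PRPF3, partners in the U4/U6 snRNP, also parted. PRPF4 was at 3.80, 4.00 and 3.96 in the MDA-MB-468 controls and at 5.26, 5.17 and 5.15 in the MDA-MB-231 controls (−1.27, SE 0.08, limma adjusted p 2.0e-06), and PRPF3 differed by 0.21 (limma adjusted p 0.029), in the other direction and under the size limit. U2AF1, the subunit that recognises the AG at the end of the intron, was at 7.83, 8.04 and 7.98 against 7.04, 7.01 and 7.00 (0.93, SE 0.08, limma adjusted p 1.1e-05). U2AF2, its partner that binds the polypyrimidine tract, was at 7.40, 7.59 and 7.63 against 7.43, 7.38 and 7.43, which overlapped (0.13, limma adjusted p 0.17). In the SF3b complex SF3B4 and SF3B14 (now SF3B6) were both higher in MDA-MB-468 by 0.67, while SF3B1, SF3B2, SF3B3 and SF3B5 were not called, with −0.16 to 0.48. The lists of subunits were drawn up after these values had been seen, so the split is a description. Transcript levels say nothing here about the amount of the proteins.

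**Figure D4:**
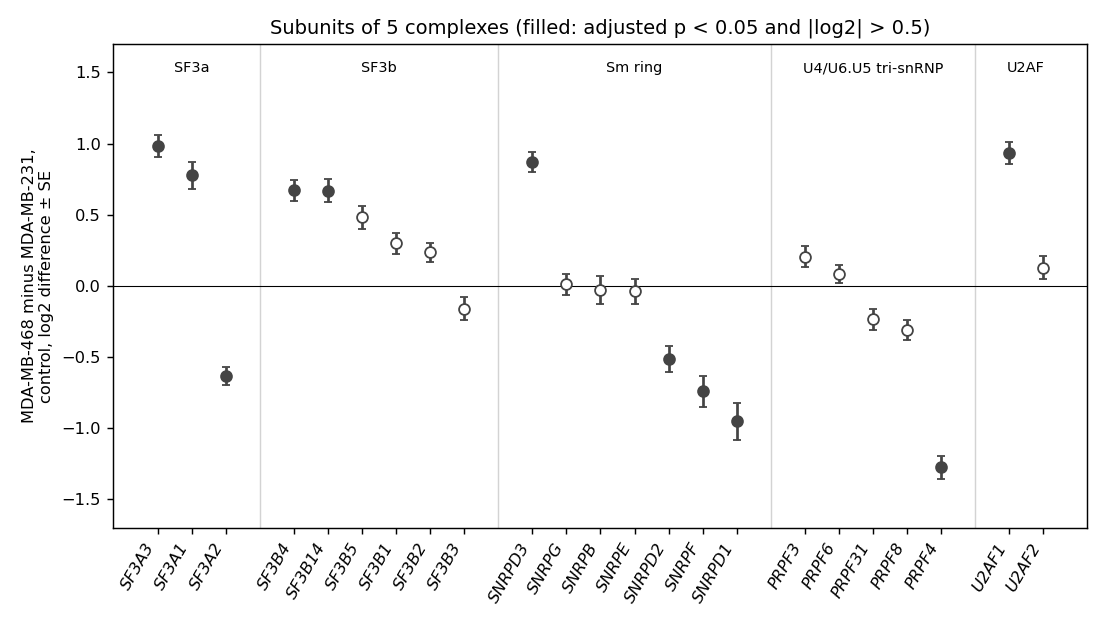
Log2 difference between MDA-MB-468 and MDA-MB-231 control samples with its standard error (3 against 3) for the subunits of 5 complexes, above 0 where MDA-MB-468 was higher. Filled points were called, and SF3a and the Sm ring hold called subunits on both sides of 0.

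Paralogs, genes that arose by duplication, were compared in 20 pairs, also drawn up with the values known. In 6 pairs both genes had an adjusted p under 0.05 with opposite signs, in 8 with the same sign, and in 6 at least one gene missed it. The pair farthest apart was RBM38 and RBM24, at 1.35 and −2.31, of which RBM24 passed the authors' filter through MDA-MB-231 alone. RBM15 and RBM15B were at 0.89 and −0.50, HNRNPA2B1 and HNRNPA1 at 0.72 and −0.46, HNRNPF and HNRNPH1 at 0.52 and −0.47, HNRNPAB and HNRNPD at 0.40 and −0.53, and SRSF2 and SRSF8 at 0.30 and −0.43. SRSF8 too passed the authors' filter only because the lines differed. Pairs on one side included PRPF38A and PRPF38B, HNRNPUL1 and HNRNPUL2, U2AF1 and U2AF1L4, and RBM39 and RBM23.

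Among KO samples 41 of the 105 genes (39%) were called between the lines, where 62.8% of all rows were (7240), with 31 higher in MDA-MB-468 (29.5% against 33.2%) and 10 lower (9.52% against 29.6%). The control and the KO comparison share no sample. Of the genes called, 34 were in both, which is 87.2% of the 39 and 82.9% of the 41, all with the same sign, and 98 of the 105 genes had the same sign in both. The largest differences were again those of RBM11 (2.21), RBM38 (1.52) and PRPF38A (1.45) on the higher side and of RBM3 (−2.11), RBM24 (−1.66) and PRPF4 (−1.13) on the lower. RBM47 stood at 0.77 among KO samples against 1.55 among controls, and RBM24 at −1.66 against −2.31, both nearer to 0. HNRNPLL was called among KO samples alone, at 0.86 against 0.41, as were RBM8A at 0.75 against 0.39 and HNRNPAB at 0.84 against 0.40, each with an adjusted p under 0.05 in both. SNRPC, at −0.30 against −0.59, SNRPF, at −0.36 against −0.74, and SNRPD2, at −0.32 against −0.51, were called among controls alone. The test of these shifts is that of the KO difference between the lines given above, in which HNRNPLL, RBM8A and HNRNPAB had an adjusted p under 0.05 and SNRPC, SNRPF and SNRPD2 did not (limma adjusted p 0.073, 0.10 and 0.25).

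**Figure D5:**
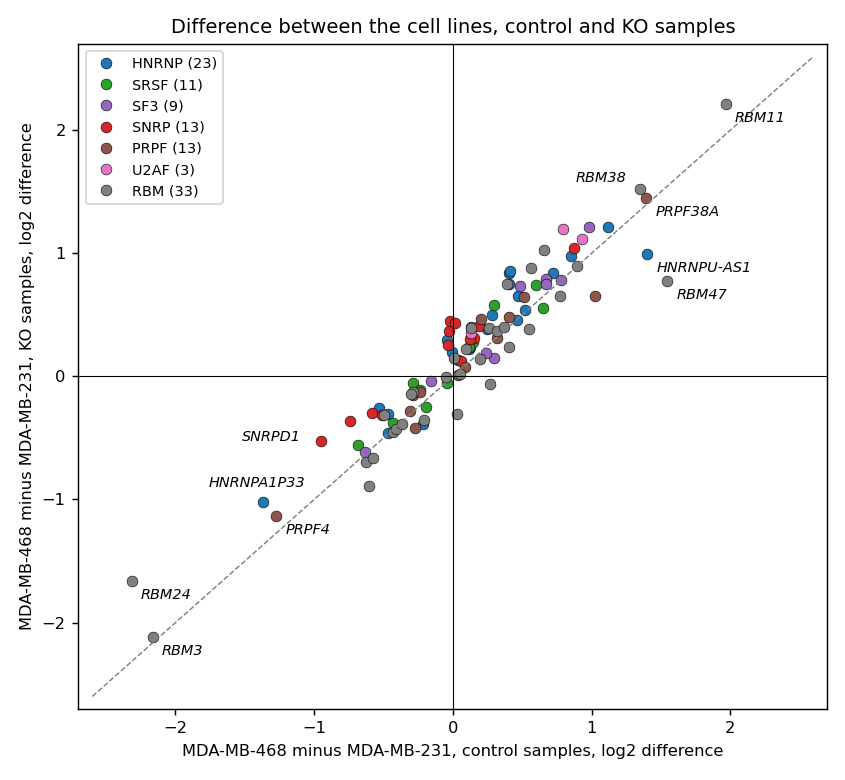
Each point is 1 of the 105 genes, placed by its log2 difference between MDA-MB-468 and MDA-MB-231 in control samples on the horizontal axis and in KO samples on the vertical axis, coloured by family, with a dashed line where both are equal. RBM47, at 1.55 and 0.77, lies below the line, and RBM24, at −2.31 and −1.66, lies above it.

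The differences between the lines were set beside those of the genes next to each member. For 101 members with at least 5 measured genes within 2 Mb on either side (GRCh37, members left out), the member's own difference among controls correlated with the median of its neighbours at a Pearson r of 0.43 and a Spearman rho of 0.58, a description over genes that share libraries and, in part, neighbours. SF3A3, on chromosome 1 from 38422647 to 38455747, had 36 neighbours with a median of 0.88 beside its own 0.98. SF3A1, on chromosome 22, had 41 with a median of 0.79 beside 0.78, and SF3A2, on chromosome 19, had 86 with −0.62 beside −0.63. U2AF1, on chromosome 21 from 44513066 to 44527680, had 33 with 0.84 beside 0.93. The 3 SF3a subunits and U2AF1 thus stood near their neighbours' medians. RBM38, on chromosome 20 from 55966452 to 55984389, had 19 neighbours with a median of −0.64 beside its own 1.35, and RBM24, on chromosome 6 from 17281592 to 17294102, had 11 with 0.31 beside −2.31. RBM47, on chromosome 4 from 40425284 to 40632892, had 19 with 0.05 beside 1.55. These 3 genes stood far from their neighbours. DNA copy number was not measured here, and its part in these values was not tested.

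Other genes of splicing, from lists outside the 105, were called between KO and control samples in 1 case. Of 25 measured genes of the U snRNPs and tri-snRNP, 20 of the Prp19 complex and catalytic steps, 13 of the exon junction complex and SR-related proteins, and 7 SR protein kinases, limma called 0 in either line. At an unadjusted p under 0.05 these lists held 2, 4, 2 and 0 genes in MDA-MB-468, where 25.1% of all rows were under it, and 8, 6, 3 and 1 in MDA-MB-231, where 31.2% were. Of 21 further splicing regulators 1 was called in MDA-MB-468, MBNL3, a muscleblind protein, at 3.51, 3.36 and 3.50 in controls and at 3.02, 2.75 and 3.01 in KO samples (−0.53, SE 0.09, limma adjusted p 0.044). With 1 sample left out its limma adjusted p was 0.048 to 0.12, and it kept its call only without KO replicate 1. In MDA-MB-231 0 of the 21 were called and 4 had an unadjusted p under 0.05. Between the control lines, 11 of the 21 were called, where 64.1% of all rows were, 8 of them higher in MDA-MB-468. The largest was ESRP1, an epithelial splicing regulator, at 5.84, 5.74 and 5.79 in MDA-MB-468 and at 0.03, 0 and 0.03 in MDA-MB-231, and its paralog ESRP2 was at 5.11, 4.89 and 4.92 against 2.40, 2.59 and 2.86. CELF2 was at 0.25, 0.11 and 0.29 against 2.03, 2.04 and 2.14. ESRP1 and CELF2 also passed the authors' filter through 1 line alone. Of the 11 genes of a list of epithelial and mesenchymal splicing regulators, which includes members, 6 were called between the control lines, 5 of them higher in MDA-MB-468, and 0 between KO and control samples in either line, with 3 in each line at an unadjusted p under 0.05.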

How the data were processed

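RNA of the 12 samples had been prepared with a TruSeq Stranded mRNA kit. Per the study's methods, Trimmomatic, STAR (against hg19) and RSEM were used in turn to trim and align the reads and to estimate FPKM, and the table the authors deposited holds log2(FPKM + 1) values of 11529 rows, from which genes with a mean or an SD of FPKM under 1 had been removed (the smallest mean and SD in the table were 1.07 and 1.00). The annotation and the strand setting of the counting were not given in the sources used here. The table gives no counts, so that depth is unknown and the precision rests on 3 samples a group. A further 18 rows bear a date for a symbol and were fitted but not named.

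Groups and replicate numbers were taken from the sample titles. limma 3.58.1 (lmFit, eBayes without trend) in R 4.3.3 was fitted on all rows of the deposited log2 values, with 6 samples for each comparison of 2 groups and all 12 in 4 groups for the difference of the KO differences, and p-values were adjusted by Benjamini-Hochberg over the 11529 rows. The call rule (adjusted p under 0.05, size of the log2 difference over 0.5) was that of the study. The fits were tested on simulated data. Named were all members called or, where over 30 were, the 15 highest and the 15 lowest, where under 10 were also the 5 highest and the 5 lowest whose groups did not overlap (for the difference between the lines, in both lines), and set representatives of each family. Members and lists were chosen with earlier results of these data known, and subunits and paralogs, as well as PRPF4 and PRPF3 as a pair, after the values had been seen.

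The fits had no block for the replicate number of the titles, which was an alternative in every comparison. Same-numbered control and KO samples deviated together in MDA-MB-468 (correlations of 0.25, 0.16 and 0.12), though control replicate 3 was nearer to KO replicate 2 (0.13). They did not in MDA-MB-231 (−0.05, 0.07 and −0.11), where control replicate 1 and KO replicate 3 had the highest value (0.22). The data thus do not settle the pairs in either line. The p numbers of the descriptions give the same pairs as the replicate numbers in MDA-MB-231 but others in MDA-MB-468. There control replicate 1 and KO replicate 2 share 26 and control replicate 2 and KO replicate 3 share 27 (−0.23 and 0.03). Alternatives were a pseudocount of 0.1, a mean log2 value over 2, an intensity trend, quantile normalization, scaling by the 75th percentile, the replicate block, a loess correction (span 0.3) for GC content and length, 1 fit of all samples, other call rules and leaving out each sample. Length, GC content and coordinates came from GENCODE release 44 mapped to GRCh37, which matched 103 members by their current symbol and 1 by an older one, and promoter sequences from RefSeq (GRCh38.p14). Figures were drawn with matplotlib 3.10.9.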

Additional observations from a re-analysis of the deposited data

Results flagged for a closer look

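For 9 genes the KO difference was unlike in the cell lines at an adjusted p under 0.05 in the limma fit of all 12 samples, given here as the MDA-MB-468 difference minus the MDA-MB-231 difference on the log2 scale. For RBM47 it was −0.77, with −0.23 in MDA-MB-468 against 0.55 in MDA-MB-231. For RBM24, which was near the floor in MDA-MB-468, it was 0.65, from 0.17 and −0.48. The other 7 were under the size limit of 0.5. HNRNPLL stood at 0.44, HNRNPAB at 0.44, SNRPG at 0.43, SNRPB at 0.40, RBM8A at 0.36, HNRNPA0 at 0.34 and RBM42 at 0.32. In 7 of the 9 genes the signs in the lines were opposite with MDA-MB-468 the higher, in RBM47 they were opposite with MDA-MB-231 the higher, and in RBM42 both were above 0, at 0.33 and 0.01. Groups of 3 samples are too small for a search for outlying samples, and none was made.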

How the results depend on the processing

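In MDA-MB-468 0 members were called between KO and control samples under any alternative, although over all rows the calls fell from 247 to 0 without control replicate 2 or without KO replicate 2, so that this count says little on its own. In MDA-MB-231 1 member was called with the GC and length correction (RBM47, 0.53), with that correction and the replicate block (RBM47), and in 1 fit of all samples (RBM47), and leaving out 1 sample gave 0 to 1, the 1 being RBM34 without MDA-MB-231 control replicate 2. With the adjusted p alone there were 5, and 0 of these 5 when any 1 sample was left out. For the difference of the KO differences the 2 calls became 1, RBM47, with a pseudocount of 0.1, the filter at a mean over 2, the same 75th percentile, quantile normalization, the GC and length correction, and that correction with the replicate block. They became 9 with the adjusted p alone and 0 with a size over 1, and leaving out 1 sample gave 1 to 4, with 4 without MDA-MB-231 control replicate 2. RBM24 lost its call when any of 9 samples was left out (the 6 of MDA-MB-468, control replicate 1 of MDA-MB-231 and KO replicates 1 and 2 of that line). Between the lines the 39 calls of the controls became 75 with the adjusted p alone and 11 with a size over 1, and the 41 of the KO samples 85 and 13, while leaving out 1 sample gave 38 to 40 and 41 to 42. Named values near 0 changed direction. Between KO and control samples of MDA-MB-468, SF3B1 (0.01) was at −0.033, SRSF1 (0.03) at −0.0042, SRSF3 (0.03) at −0.012 and SRSF5 (0.0012) at −0.019 with quantile normalization, SRSF5 at −0.010 with the same 75th percentile, and SRSF5 at −0.0082 and SRSF7 (−0.02) at 0.015 with the GC and length correction, with or without the block. With 1 sample left out they ranged from −0.0054 to 0.031 (SF3B1), −0.017 to 0.062 (SRSF1), −0.030 to 0.080 (SRSF3), −0.043 to 0.032 (SRSF5), −0.072 to 0.016 (SRSF7) and −0.0010 to 0.59 (SNRPEP4). In MDA-MB-231 RBM42 (0.01) was at −0.10 with the GC and length correction, with or without the block, and at −0.011 to 0.042 with 1 sample left out. Between control lines, HNRNPC was at 0.015 with the same 75th percentile, SNRPG at −0.047 with quantile normalization, and SRSF5 at 0.012 and U2AF2 at −0.031 with the GC and length correction, with or without the block. With 1 sample left out HNRNPC ranged from −0.049 to 0.047, SNRPB from −0.075 to 0.044, SNRPE from −0.12 to 0.013 and SNRPG from −0.031 to 0.049. Depth could not be weighed, since no counts were used here.

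With the replicate number as a block, 0 members were called between KO and control samples in either line (241 and 0 of all rows), 1 for the difference between the lines (RBM47, with 992 of all rows), and 39 and 41 between the lines among controls and KO samples. No other call of a member changed with the block. Between the lines, the deviations of same-numbered samples correlated at −0.10, −0.02 and 0.01 among controls and at 0.175, 0.02 and 0.12 among KO samples.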
